A study of Danio rerio with 4 samples.

Results

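The genes of DNA replication and of mitosis were examined in nuclear RNA from the heads of zebrafish larvae. From 40 gene names, 20 for replication and 20 for mitosis, every row of the count table was taken whose symbol matched a name, ignoring case and the letter that marks a duplicated gene. This gave 44 genes of 31952 in the table, 22 for replication and 22 for mitosis, because MCM6, RRM2, bub1bb and birc5a each matched 2 rows. Symbols are written as the name table gives them. RRM2B, a ribonucleotide reductase subunit of its own that many cells use outside S phase, was not counted as a member.

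All larvae came from a cross of a biotagging line (ox128) with an oncogene line (ox130). The first line carries mpo:BirA-Citrine, a biotin ligase under the neutrophil promoter mpo (mpx), together with bactin:Avi-Cerulean-Rangap, a tag on the envelope of every nucleus, so that neutrophil nuclei can be captured on streptavidin beads. The other line carries kita:LexPR-Cerulean, a driver under a melanocyte promoter, and the effector LexOP:mCherry-NRas with the lens reporter PcrysB:ECFP, and the driver switches the NRas oncogene on when mifepristone is present. The 2 control libraries came from larvae without mifepristone, and the 2 NRas+ libraries from larvae treated with mifepristone at 1 µM, starting 24 h post fertilisation (hpf). Both groups were collected at 5 days post fertilisation (dpf). Each library came from many pooled heads, and the study's list of lines gives the allele number ox130 to the line with a mitfa driver and ox129 to that with kita, a difference the counts do not settle. Only the NRas+ larvae received mifepristone, so in these libraries the drug and the oncogene cannot be told apart. The paper states that embryos with mCherry-NRas in their melanocytes were chosen for profiling, so the groups may also differ by this choice. By qPCR in larvae of the biotagging line alone, it reported little or no change with mifepristone in its candidate genes. None of those is a member here.

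A cell copies its genome once per division. Origins are licensed when Cdc6 and Cdt1 load the ring-shaped MCM helicase, and they fire when Cdc45 and the GINS complex join it. DNA polymerase alpha with primase then starts each strand, and PCNA clamps the later polymerases to the template. At mitosis, Cdk1 with cyclins A and B, the Aurora and Polo kinases, condensins and kinesins condense and part the chromosomes, while the checkpoint proteins Bub1, BubR1 and Mad2 hold Cdc20 until the spindle is attached. Replication genes peak in transcription around the start of S phase and most mitosis genes in G2 and M phase, so the lists mark successive stages. Mature neutrophils do not divide, whereas their precursors and many cells of a growing larval head do.

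The libraries did not detect genes to the same extent. Total counts ranged from 30619195 to 42365244. Control 1 and NRas+ 1 had at least 1 count in 21205 and 21191 genes, and control 2 and NRas+ 2 in 25111 and 24490 genes. Of the 20099 genes with enough counts for a test, 1096 and 1080 were at 0 counts in control 1 and NRas+ 1, against 46 and 53 in the other two libraries. Neutrophil markers made up between 0.00363 and 0.00674% of all counts, with 8 of 12 names matched. Lysozyme, lyz, was at 12.6 and 3.0 CPM in the controls and 10.9 and 12.6 CPM in NRas+, where CPM is the count per 1000000 of a library total scaled by edgeR's TMM factor. CSF3R, the receptor for the growth factor of granulocytes, had at most 12 counts in any library, and mpx was not found under that name. Skeletal muscle markers took between 16.5 and 33.6% of all counts. In such bulk samples, fewer cells of a type and less RNA per cell cannot be told apart.

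No replication or mitosis gene passed the test for a difference between NRas+ and control libraries. Of the 44 genes, 42 had enough counts for a test, and 0 of 42 passed an adjusted p of 0.05 (quasi-likelihood test of edgeR, adjusted over all genes by Benjamini-Hochberg), where 0.169% of all genes passed (34 genes, 0.129% higher and 0.0398% lower). None of the 42 had an unadjusted p under 0.05, against 11.3% of all genes, and DESeq2 called 0 of them, against 2.05% of the genes to which it gave an adjusted p. The smallest adjusted p of a member from edgeR was 0.65. With the TMM factor the groups did not overlap for 5 of 42 members (11.9%), against 42.3% of all genes. With no size factor PCNA, CDC45 and TYMS, which were among these, overlapped. With 2 libraries against 2, a two-sided exact permutation test cannot give a p below 0.333, and p-values measure only the spread between these libraries, which may be partly technical.

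Fitted changes leaned up for replication genes and down for mitosis genes, without passing the test in either list. Of 21 replication genes tested, 13 had a fitted log2 fold change above 0 and 8 below, with a median of 0.30 and a range of -1.0 to 1.38. Of 21 mitosis genes tested, 5 were above 0 and 16 below, with a median of -0.32 and a range of -1.62 to 0.72. Among all genes 47.9% were above 0, with a median of -0.04. The lean of the mitosis list rested on single libraries, since its median became 1.89 without control 2 and 0.18 without NRas+ 1, against -1.04 without control 1 and -1.14 without NRas+ 2. The number of members above 0 went from 18 to 33 without control 2 and to 28 without NRas+ 1. The median of the replication list stayed above 0 in each of these fits, between 0.02 and 0.53.

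**Figure D1:**
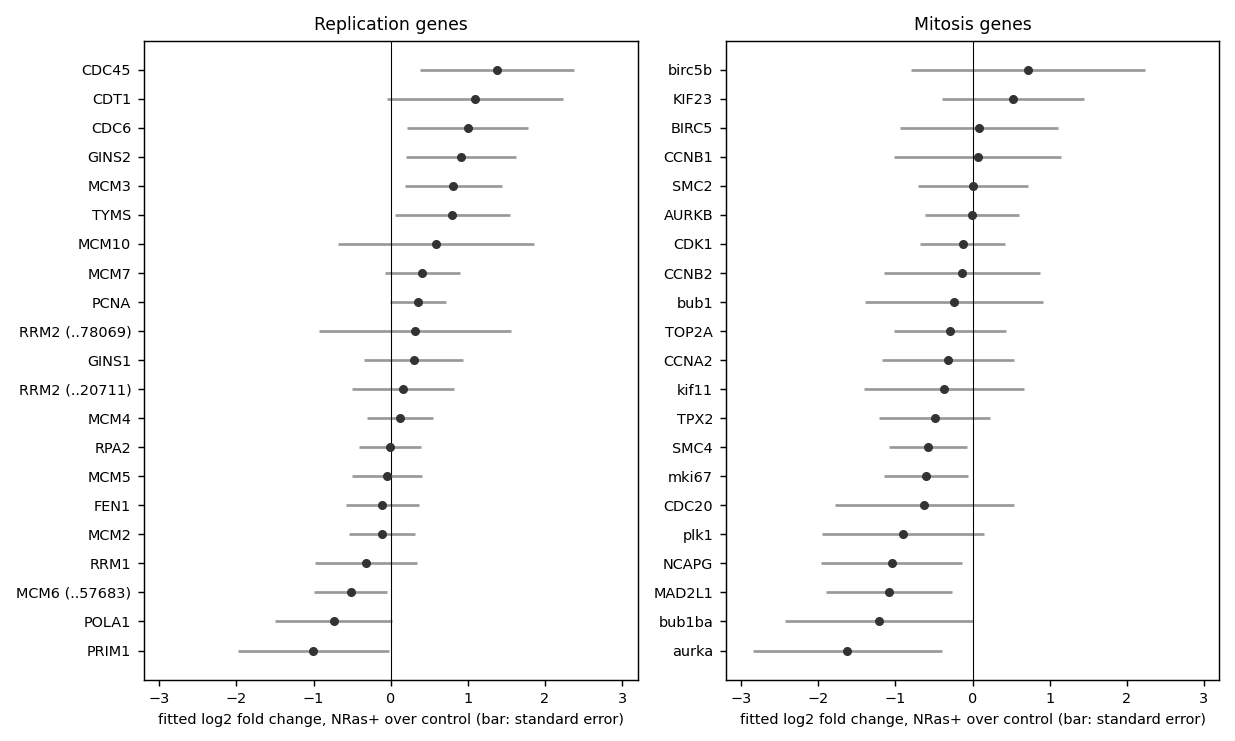
Fitted log2 fold change of NRas+ over control for each of the 21 replication genes (left) and 21 mitosis genes (right) tested, sorted by size. Points are edgeR estimates from 2 control and 2 NRas+ libraries and bars are 1 standard error on each side. No gene passed an adjusted p of 0.05, and the values ran from -1.0 to 1.38 for replication and from -1.62 to 0.72 for mitosis.

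The lists, taken whole, were separated by the difference between the libraries of one group, although the replication genes were not alike in it. The median replication gene differed by 0.29 on the log2 scale between control 2 and control 1, and by 0.02 between NRas+ 2 and NRas+ 1. The median mitosis gene was higher by 2.41 in control 2 than in control 1, and by 1.19 in NRas+ 2 than in NRas+ 1. Over all genes tested these medians were 0.09 and 0.06. For 19 of 21 mitosis genes (90.5%) the library numbered 2 was the higher one in both groups, against 9 of 21 replication genes (42.9%) and 30.9% of all genes, the exceptions among mitosis genes being BIRC5 and birc5b. A difference of at least 2-fold in both groups was present in 13 of 21 mitosis genes (61.9%), in 6 of 21 replication genes (28.6%) and in 9.24% of all genes. The opposite, at least 2-fold lower in both, held for 1 of the 42 members, MCM7, and for 2.48% of all genes. Within the replication list, none of the 6 tested genes of MCM2 to MCM7 was higher in library 2 of both groups. This order held for 3 of 6 genes that load and fire origins and 4 of 5 genes of the fork and priming. It also held for 2 of 4 genes of nucleotide supply. In each of these last 3 groups, 2 genes reached 2-fold in both. All these numbers compare single libraries within a group and carry no test.

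**Figure D2:**
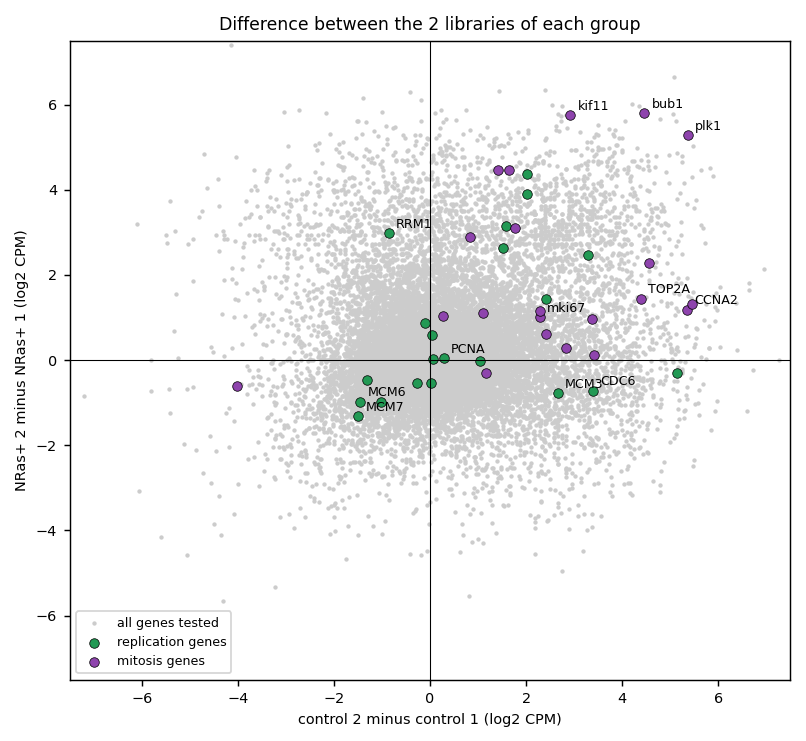
Difference between the libraries of each group for every gene tested (grey), replication genes (green) and mitosis genes (purple), with control 2 minus control 1 on the x axis and NRas+ 2 minus NRas+ 1 on the y axis, both in log2 CPM. Of 21 mitosis genes, 19 lie above 0 on both axes, while MCM6 and MCM7 lie below 0 on both.

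Summed over its 22 genes, the mitosis list reached 41.3 and 186 CPM in control 1 and control 2, and 53.7 and 127 CPM in NRas+ 1 and NRas+ 2. The controls thus differed by 4.50-fold and the NRas+ libraries by 2.36-fold, so the groups overlapped. Group means were 114 ± 102 CPM in controls and 90.2 ± 51.7 CPM in NRas+ (SD, n = 2 each), a difference smaller than either SD. The replication list summed to 353 and 273 CPM in the controls and to 373 and 308 CPM in NRas+, with means of 313 ± 56.3 and 341 ± 45.9 CPM (SD, n = 2 each). The order of the controls and of the group means in the replication sum depended on the scaling. When the library total was used with no size factor, the controls were at 310 and 384 CPM and the means were 347 CPM in controls and 306 CPM in NRas+. Within a library the ratio of the mitosis to the replication sum needs no scaling, and it was 0.117 and 0.680 in the controls and 0.144 and 0.411 in NRas+. Sums of CPM weigh genes by their abundance and length, so the ratio serves to compare libraries and not genes.

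**Figure D3:**
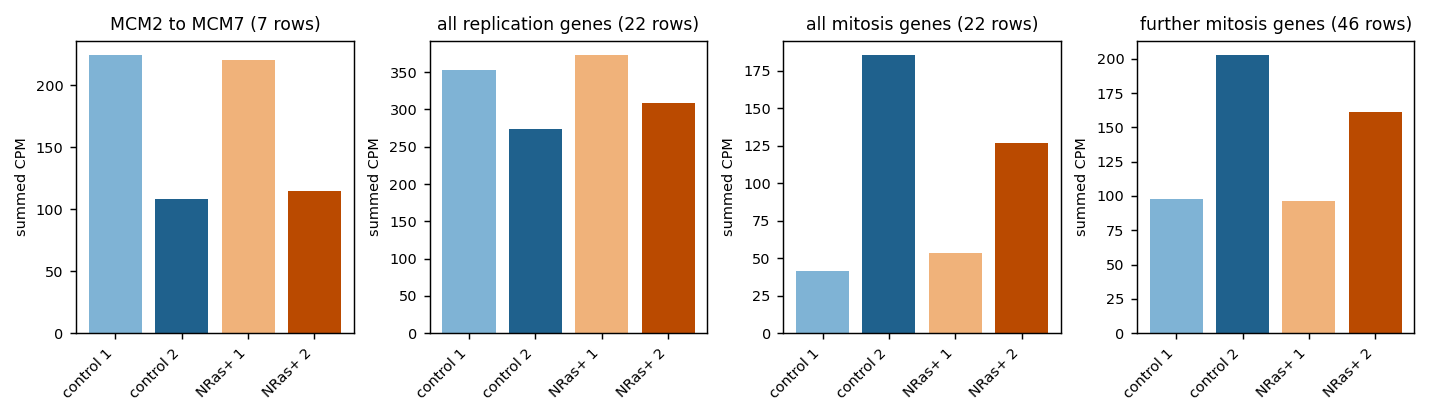
Summed CPM in each library for the 7 rows of MCM2 to MCM7, all 22 replication genes, all 22 mitosis genes and 46 further mitosis genes, each panel with its own axis from 0. Bars are single libraries. The MCM sum was 108 and 115 CPM in control 2 and NRas+ 2 against 224 and 220 CPM in control 1 and NRas+ 1, whereas the mitosis sums were higher in control 2 and NRas+ 2.

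The scaling moved all genes together but left this order for the mitosis list. With no size factor, the median over all genes shifted to 0.75 between the controls and 0.19 between the NRas+ libraries. The mitosis medians were then 3.05 and 1.31 and those of replication 0.96 and 0.15, so relative to all genes the mitosis list kept the larger difference in both groups. On that scale 19 of 21 mitosis genes were again higher in the library numbered 2 in both groups, against 46.5% of all genes.

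The difference was also present among the more abundant mitosis genes. Most mitosis genes had a mean below 5 CPM, and among all genes with a mean below 1 CPM, 28.6% were at least 2-fold higher in both libraries numbered 2. Between 1 and 5 CPM this held for 9.31% of 6458 genes, for 3 of 8 replication genes and for 7 of 10 mitosis genes. Between 5 and 20 CPM it held for 1.79% of 5820 genes, for 1 of 5 replication genes and for 3 of 6 mitosis genes. From 20 to 100 CPM it held for 0.524% of 3053 genes, for 0 of 6 replication genes and for the single mitosis gene there, mki67. Whether the smaller number of genes detected in control 1 and NRas+ 1 had a part in the mitosis values was not tested.

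Of the 6 subunits of the replicative helicase, MCM2 to MCM7, all but MCM3 ran in the other direction. MCM7 (ENSDARG00000101180) was at 54.7 and 19.4 CPM in the controls and at 69.3 and 27.7 CPM in NRas+. MCM6 (ENSDARG00000057683) was at 55.0 and 20.0 CPM in the controls and at 34.3 and 17.4 CPM in NRas+. MCM2 (ENSDARG00000102798) was at 60.8 and 29.9 CPM in the controls and at 55.3 and 28 CPM in NRas+. In each of these the library numbered 1 was the higher in both groups and the groups overlapped. The same order held in MCM5 (34.0 and 13.7 CPM, then 26.5 and 19.0 CPM) and in MCM4 (18.4 and 15.2 CPM, then 21.6 and 14.9 CPM), although with no size factor MCM4 was the higher in control 2. Summed, the helicase stood at 224 and 108 CPM in the controls and 220 and 115 CPM in NRas+, with group means of 166 ± 82.3 and 167 ± 74.5 CPM (SD, n = 2 each). With no size factor the sums kept their order within each group, at 197 and 152 CPM in the controls and 189 and 108 CPM in NRas+, but the ratio of control 2 to control 1 moved from 0.481 to 0.770 and the group means to 174 and 149 CPM.

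MCM3 (ENSDARG00000024204) departed from its partner subunits. It was at 1.45 CPM in control 1, 9.45 CPM in control 2, 13.2 CPM in NRas+ 1 and 7.68 CPM in NRas+ 2, so that control 1 alone was low. Its fitted log2 fold change was 0.81 (SE 0.63), with an adjusted p of 0.675 in edgeR's quasi-likelihood test, and 0.16 without control 1. It was 6.51-fold higher in control 2 than in control 1, whereas the other 5 subunits stood there at 0.355 to 0.829 of their level in control 1. A further row named MCM6 (ENSDARG00000033231) had 1 and 10 counts in the controls, then 0 and 4 in NRas+, too few for a test.

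Genes that load and fire origins had the highest median fitted change of the replication groups, 0.95, with all 6 above 0 and singly between 0.30 and 1.38. CDC45 (ENSDARG00000043720), part of the active helicase, had no counts in control 1 and was at 1.76 CPM in control 2, 3.18 CPM in NRas+ 1 and 2.58 CPM in NRas+ 2. CDC6 (ENSDARG00000009942), the helicase loader, was at 0.372 and 4.39 CPM in the controls and at 6.88 and 4.15 CPM in NRas+. In both genes control 1 stood far below the other 3 libraries. With the TMM factor only CDC45 kept both NRas+ libraries above both controls, and with no size factor neither gene did. Their log2 fold changes were 1.38 (SE 1.00) and 1.00 (SE 0.78), with adjusted p of 0.65 and 0.678 in edgeR's quasi-likelihood test. Without control 1 they were 0.72 and 0.34, and without control 2 CDC6 was 3.90.

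GINS2 (ENSDARG00000002304), a subunit of the GINS complex, had controls close together at 2.61 and 2.65 CPM and NRas+ libraries above them at 5.87 and 4.05 CPM. Its log2 fold change was 0.91 (SE 0.72, adjusted p = 0.68 by edgeR's quasi-likelihood test) and stayed between 0.63 and 1.19 when single libraries were left out. GINS1, from the same complex, was at 4.32 and 4.47 CPM in the controls and at 4.28 and 6.52 CPM in NRas+, which overlapped. CDT1 (ENSDARG00000051854), the other loader, had 2 and 64 counts in the controls, then 17 and 107 counts in NRas+, high in both libraries numbered 2. MCM10, a firing factor, had 4 and 30 counts in the controls, then 3 and 43 in NRas+, the same order.

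At the fork, PCNA (ENSDARG00000054155), the sliding clamp and a common marker of S phase, was at 64.5 and 78.7 CPM in the controls and at 90.3 and 93.2 CPM in NRas+. With the TMM factor both NRas+ libraries were above both controls, with means of 91.8 ± 2.03 against 71.6 ± 10.1 CPM (SD, n = 2 each). With no size factor control 2 was the highest library, holding 4302 counts against 3294 and 3546 in NRas+, and the groups overlapped. The log2 fold change was 0.36 (SE 0.37), with an adjusted p of 0.769 in edgeR's quasi-likelihood test, and ranged from 0.23 to 0.53 without single libraries. RPA2 encodes a subunit of the protein that coats single-stranded DNA. With the TMM factor it was the steadiest member over these 4 libraries, at 22.1 and 23.1 CPM in the controls and 22.3 and 22.7 CPM in NRas+. With no size factor control 2 was its highest library, holding 1262 counts against 594 in control 1. FEN1, the nuclease that trims Okazaki fragments, was at 13.3 and 12.3 CPM in the controls and 8.31 and 15.4 CPM in NRas+.

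The priming enzymes behaved differently from the clamp. PRIM1 (ENSDARG00000040163), the catalytic subunit of primase, was at 1.19 and 4.96 CPM in the controls and at 0.165 and 3.18 CPM in NRas+. POLA1 (ENSDARG00000045308), the catalytic subunit of polymerase alpha, was at 3.01 and 8.73 CPM in the controls and at 0.987 and 6.41 CPM in NRas+. Both were higher in the libraries numbered 2, by 4.17-fold and 19.3-fold for PRIM1 and by 2.90-fold and 6.50-fold for POLA1, and the groups overlapped. The 19.3-fold difference of PRIM1 rested on 6 counts in NRas+ 1. The log2 fold changes of PRIM1 and POLA1 were -1.0 (SE 0.98) and -0.74 (SE 0.76), with adjusted p of 0.749 and 0.769 in edgeR's quasi-likelihood test, and turned to 0.53 and 0.32 without control 2.

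Enzymes of nucleotide supply did not share an order. The large subunit of ribonucleotide reductase, RRM1, was at 13.0 and 7.14 CPM in the controls and at 1.73 and 14.0 CPM in NRas+, where NRas+ 1 alone was low. The small subunit RRM2 (ENSDARG00000020711) was at 2.08 and 11.3 CPM in the controls and at 4.31 and 11.7 CPM in NRas+, high in both libraries numbered 2. A further RRM2 row (ENSDARG00000078069) had 5 and 50 counts in the controls, then 1 and 60 counts in NRas+. TYMS, thymidylate synthase, was at 1.53 and 3.17 CPM in the controls and at 4.39 and 4.34 CPM in NRas+, above both controls (log2 fold change 0.80, SE 0.75, adjusted p = 0.738 by edgeR's quasi-likelihood test). With no size factor control 2 was its highest library, holding 173 counts against 160 and 165 in NRas+.

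**Figure D4:**
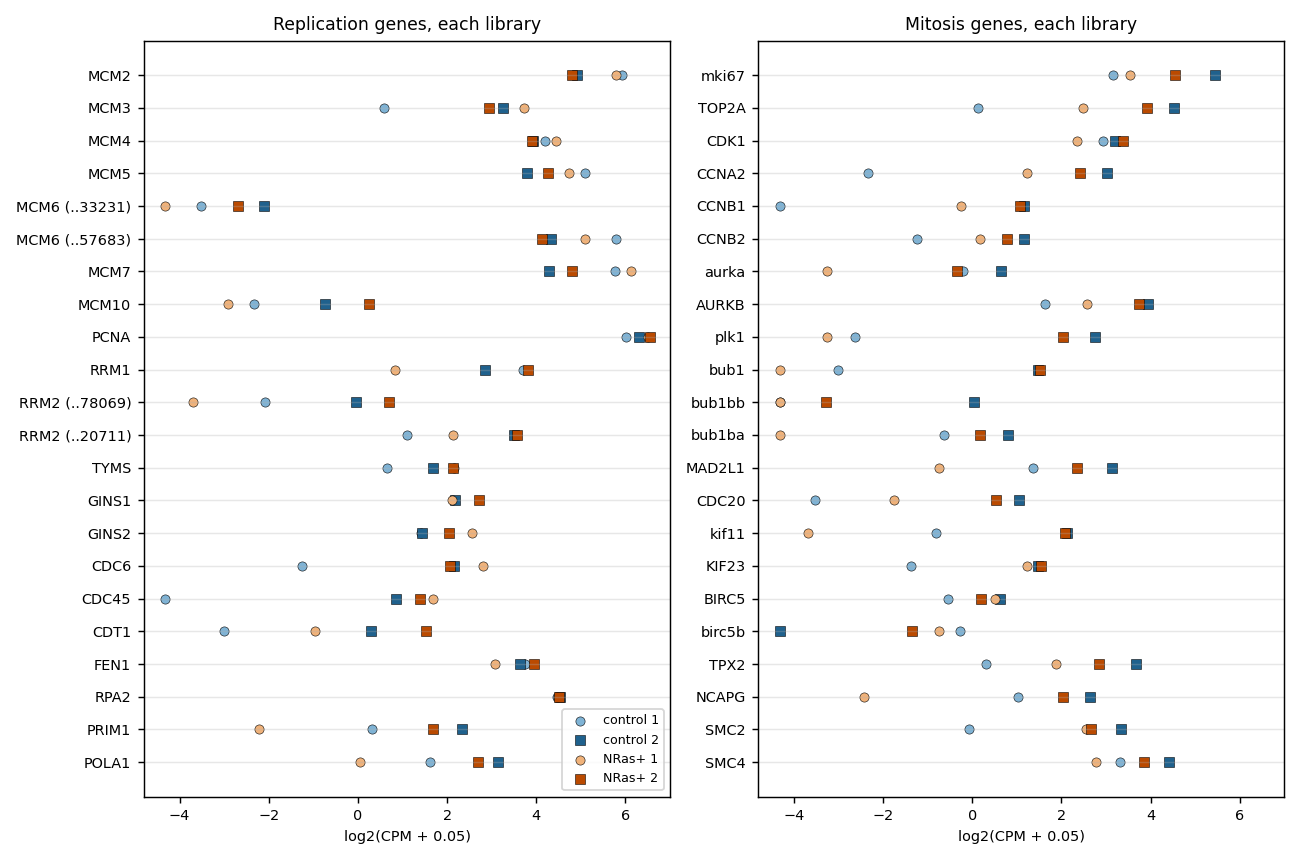
Level of each of the 44 genes in every library, as log2(CPM + 0.05), with replication genes on the left and mitosis genes on the right. Circles are control 1 and NRas+ 1, squares control 2 and NRas+ 2, blue is control and orange NRas+. For mitosis genes the squares lie to the right of the circles in most rows, whereas for MCM2, MCM5, MCM6 and MCM7 they lie to the left.

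Genes for chromosome proteins were higher in both libraries numbered 2, all 5 of them. The proliferation marker mki67 (ENSDARG00000091150), which coats mitotic chromosomes, was at 8.82 and 43.2 CPM in the controls and at 11.6 and 23.4 CPM in NRas+. TOP2A (ENSDARG00000024488), the topoisomerase that untangles sister chromatids, was at 1.04 and 22.8 CPM in the controls and at 5.54 and 15.1 CPM in NRas+. Control 2 was the highest library for both, followed by NRas+ 2, and the control pair differed by 4.90-fold for mki67 and by 21.9-fold for TOP2A. Their log2 fold changes were -0.60 (SE 0.55) and -0.30 (SE 0.73), with adjusted p of 0.726 and 0.922 in edgeR's quasi-likelihood test. Without control 2 the values were 1.01 and 3.33, and that for TOP2A was 0.31 without NRas+ 1.

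The condensin genes, whose products compact chromosomes, followed the same order with unequal size. SMC4 (ENSDARG00000038882) was at 9.82 and 21.3 CPM in the controls and at 6.75 and 14.5 CPM in NRas+, a 2.16-fold and a 2.15-fold difference. NCAPG (ENSDARG00000070109) was at 1.97 and 6.22 CPM in the controls and at 0.137 and 4.07 CPM in NRas+, where NRas+ 1 held 5 counts. SMC2, the partner of SMC4, was at 0.893 and 10.0 CPM in the controls but at 5.79 and 6.31 CPM in NRas+, so the NRas+ libraries lay close together. The log2 fold changes of SMC4 and NCAPG were -0.58 (SE 0.51) and -1.05 (SE 0.92), with adjusted p of 0.714 and 0.713 in edgeR's quasi-likelihood test, and became 0.13 and 0.13 without control 2.

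Cdk1 and its cyclins differed in how far they moved between libraries. CDK1 (ENSDARG00000087554), the kinase that starts mitosis, was at 7.59 and 9.10 CPM in the controls and at 5.02 and 10.3 CPM in NRas+, the smallest difference between the controls of any mitosis gene tested. CCNA2, cyclin A2, was at 0.149 and 8.13 CPM in the controls and at 2.28 and 5.26 CPM in NRas+, a 54.6-fold difference between the controls that rested on 4 counts in control 1. CCNB1, cyclin B1, had no counts in control 1 and 120 in control 2, at least 19.7-fold more when 3 counts are taken as the floor, and 29 and 78 counts in NRas+. CCNB2 was at 0.372 and 2.2 CPM in the controls and at 1.07 and 1.66 CPM in NRas+. The log2 fold change of CDK1 was -0.13 (SE 0.55, adjusted p = 0.965 by edgeR's quasi-likelihood test), and it was 0.04 without control 2 and 0.31 without NRas+ 1.

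Among the mitotic kinases, plk1 had the most uneven counts. This Polo-like kinase had 3 counts in control 1 and 364 in control 2, and 2 counts in NRas+ 1 and 155 in NRas+ 2. AURKB, the kinase of the chromosomal passenger complex, was at 3.05 and 15.2 CPM in the controls and at 5.92 and 13.3 CPM in NRas+, 4.98-fold and 2.25-fold higher in the libraries numbered 2. Only aurka (ENSDARG00000012485), the kinase of the spindle poles, had both NRas+ libraries below both controls, at 0.055 and 0.736 CPM against 0.819 and 1.5 CPM. NRas+ 1 held 2 counts of it. Its log2 fold change of -1.62 (SE 1.23) was the lowest of the 42 members tested, with an adjusted p of 0.664 in edgeR's quasi-likelihood test. It ran from -0.72 without NRas+ 1 and -1.0 without control 2 to -4.37 without NRas+ 2.

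The spindle checkpoint genes were low in control 1 and NRas+ 1. Summed over 5 rows they were at 3.24 and 16.2 CPM in the controls and at 0.795 and 10.4 CPM in NRas+. MAD2L1 (ENSDARG00000004713), which encodes Mad2, was at 2.53 and 8.77 CPM in the controls and at 0.548 and 5.07 CPM in NRas+, a 3.46-fold and a 9.25-fold difference. The checkpoint kinase bub1 had 2 and 148 counts in the controls, then 0 and 107 counts in NRas+. Of the genes for BubR1, bub1ba (ENSDARG00000078825) had 16 and 92 counts in the controls, then 0 and 41 in NRas+, and bub1bb had 0 and 53 counts in the controls, then 0 and 2 in NRas+, too few for a test. CDC20, the checkpoint's target, had 1 and 111 counts in the controls, then 9 and 53 in NRas+. All 4 of those tested were at least 2-fold higher in the libraries numbered 2 of both groups. MAD2L1 and bub1ba had log2 fold changes of -1.09 (SE 0.82) and -1.21 (SE 1.22), with adjusted p of 0.663 and 0.761 in edgeR's quasi-likelihood test, and MAD2L1 turned to 0.18 without control 2. That of bub1ba was -0.10 without control 2, -0.19 without NRas+ 1 and -8.60 without NRas+ 2, where the remaining NRas+ library had no counts.

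Spindle genes held the exceptions. The kinesin kif11, which pushes the spindle poles apart, had 14 and 234 counts in the controls, then 1 and 159 in NRas+. TPX2, a spindle assembly factor, was at 1.19 and 12.7 CPM in the controls and at 3.62 and 7.10 CPM in NRas+. KIF23 (ENSDARG00000014943), a kinesin of the central spindle, was at 0.335 and 2.71 CPM in the controls and at 2.30 and 2.84 CPM in NRas+, so that control 1 alone was low (log2 fold change 0.53, SE 0.92, adjusted p = 0.879 by edgeR's quasi-likelihood test, and -0.06 without control 1). Survivin, of the chromosomal passenger complex, is encoded by a pair of zebrafish genes. BIRC5 (ENSDARG00000075621) was at 0.633 and 1.48 CPM in the controls and at 1.37 and 1.1 CPM in NRas+, and birc5b (ENSDARG00000055655) had 21 and 0 counts in the controls, then 20 and 13 in NRas+. These were the mitosis genes not higher in NRas+ 2 than in NRas+ 1, and birc5b was the only member at 0 counts in control 2. Their log2 fold changes were 0.08 (SE 1.03) and 0.72 (SE 1.52), with adjusted p of 0.989 and 0.907 in edgeR's quasi-likelihood test. That of BIRC5 turned to -0.25 without control 1 and to -0.03 without NRas+ 1, and that of birc5b to -0.79 without control 2.

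Control 2 was the highest library for 18 of 22 mitosis genes, NRas+ 2 for 3 and control 1 for 1. The lowest was control 1 for 12, NRas+ 1 for 9 and control 2 for 1. The replication genes were spread over the libraries, with the highest value in control 1 for 3, control 2 for 4, NRas+ 1 for 7 and NRas+ 2 for 8. At most 3 counts were found for 5 and 6 mitosis genes in control 1 and NRas+ 1, against 1 and 1 in control 2 and NRas+ 2. For the median mitosis gene the controls differed by 2.84 and the NRas+ libraries by 1.19 on the log2 scale, whatever the sign, and the group means by 0.88. The same sizes were 1.45, 0.88 and 0.44 for replication genes and 0.80, 0.62 and 0.64 for all genes. In 12 of 21 genes of each list the groups differed by less than either pair of libraries did (57.1%), against 36.0% of all genes. A difference between means tends to be smaller than one between single libraries even with no group effect. The share over all genes is therefore given beside it.

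Further genes of the same processes gave a like picture for mitosis and a flatter one for replication. Of 42 other replication genes, covering the origin recognition complex, polymerases, clamp loader and chromatin assembly, 0 were called, 22 were above 0 and 20 below, with a median of 0.03. Of 46 other mitosis genes, covering kinetochore, kinesin, condensin and cytokinesis factors, 0 were called, 16 were above 0 and 30 below, with a median of -0.41. By edgeR's quasi-likelihood test no gene of either list reached an unadjusted p of 0.05, and DESeq2 called 0. The 2-fold difference between libraries in both groups held for 20 of the 46 mitosis genes (43.5%) and 3 of the 42 replication genes (7.14%), beside 9.24% of all genes. Their sums were 98.2 and 203 CPM in the controls and 96.0 and 161 CPM in NRas+ for mitosis, and 449, 417, 404 and 418 CPM for replication in the same order.

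The further replication genes with the smallest p were LIG1, ASF1B and RFC3. LIG1 (ENSDARG00000060041), the ligase that joins Okazaki fragments, was at 79.9 and 37.2 CPM in the controls and at 35.8 and 31.1 CPM in NRas+, with a log2 fold change of -0.80 (SE 0.41, adjusted p = 0.491 by edgeR's quasi-likelihood test) that was -0.14 without control 1 and -1.23 without control 2. ASF1B (ENSDARG00000101037), a histone chaperone, had 2 counts in control 1 and was at 5.6 CPM in control 2, 8.67 CPM in NRas+ 1 and 7.36 CPM in NRas+ 2. Its fitted change was 0.53 without control 1 and 6.70 without control 2. The low value in control 1 alone is the order seen in MCM3, CDC6 and CDC45. A further ASF1B row (ENSDARG00000043713) did not have it, at 4.50 and 3.37 CPM in the controls and 6.06 and 7.07 CPM in NRas+. RFC3, a subunit of the clamp loader, was at 5.55 and 10.1 CPM in the controls and at 15.1 and 11.7 CPM in NRas+, a log2 fold change of 0.73 (SE 0.50, adjusted p = 0.622) that was 0.42 without control 1 and 1.29 without control 2.

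The corresponding mitosis genes, TTK, cdca5 and pttg1, had both NRas+ libraries below both controls. Picking by smallest p favours genes whose groups do not overlap. Of the 46 further mitosis genes tested, 5 had both NRas+ libraries below both controls and 1 had both above. These were 13.0% of the list, against 42.3% of all genes. TTK (ENSDARG00000041361), the checkpoint kinase Mps1, was at 7.0 and 5.49 CPM in the controls and at 1.18 and 3.36 CPM in NRas+, with a log2 fold change of -1.43 (SE 0.73, adjusted p = 0.485 by edgeR's quasi-likelihood test) that was -0.87 without NRas+ 1 and -2.36 without NRas+ 2. The cohesin protector cdca5, sororin, was at 5.40 and 4.32 CPM in the controls, with 1 count in NRas+ 1 and 3.0 CPM in NRas+ 2 (-1.64, SE 0.92, adjusted p = 0.53), its fold change being -0.68 without NRas+ 1 and -7.27 without NRas+ 2. Securin, pttg1, which guards separase, was at 1.60 and 2.21 CPM in the controls and at 0.411 and 0.762 CPM in NRas+ (-1.74, adjusted p = 0.588). The highest ratio of control 2 to control 1 among them was 1.38, for pttg1. The NRas+ libraries lay further apart. NRas+ 2 was 2.85-fold higher than NRas+ 1 for TTK and 1.85-fold for pttg1, and cdca5 had 1 and 114 counts there.

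Marker genes of neutrophils and of other cells were compared with the mitosis sum, which was 4.50-fold and 2.36-fold higher in control 2 and NRas+ 2 than in control 1 and NRas+ 1. The neutrophil list, 41.3 and 48.0 CPM in the controls and 46.7 and 56.8 CPM in NRas+, differed by 1.16-fold and 1.22-fold. Between control 1 and control 2 its members moved both ways. Of these, srgn rose from 17.9 to 36.5 CPM, CORO1A from 3.31 to 4.34 CPM and MMP9 from 0.558 to 1.85 CPM. By contrast, lyz fell from 12.6 to 3.0 CPM, npsn from 5.58 to 1.30 CPM and mmp13a from 0.968 to 0.403 CPM. For the neural and retinal progenitor list, at 305 to 375 CPM, the ratios of library 2 to library 1 were 0.877 and 0.932. Much of that sum was GFAP, at 176 and 187 CPM in the controls and 256 and 207 CPM in NRas+. Its members did not move together. In both groups her4.1 was higher in library 2 (0.112 and 1.06 CPM, then 0.548 and 2.52 CPM), with 3 counts in control 1. SOX2 was lower there (9.79 and 3.86 CPM, then 8.89 and 3.73 CPM). For the macrophage list, at 9.55 to 16.1 CPM, the ratios were 0.594 and 0.956. The lymphoid and thymus list of 12 rows summed to 1.75 and 2.38 CPM in the controls and 1.21 and 5.02 CPM in NRas+, ratios of 1.36 and 4.16, with cd4-1, cd8a and ZAP70 at most 4 counts in any library. These sums rested on few counts. IKZF1 had 62 counts in NRas+ 2 and 0 elsewhere. RAG1 had 0 and 16 counts in the controls, then 2 and 32 in NRas+, and CCR9 (ENSDARG00000055186) 0 and 21, then 0 and 44. RAG2 had 31 and 7 counts in the controls, then 0 and 11 in NRas+. The melanocyte list was at 162 and 265 CPM in the controls and at 162 and 198 CPM in NRas+, ratios of 1.63 and 1.23. Within it, OCA2 was at 1.86 and 15.4 CPM in the controls, then 3.70 and 6.18 CPM in NRas+. TYR was at 2.34 and 3.35 CPM in the controls, then 1.62 and 0.867 CPM in NRas+. The epidermis list was lower in the libraries numbered 2, at 3387 and 1522 CPM in the controls and 5384 and 2070 CPM in NRas+, ratios of 0.449 and 0.384. Its members were uneven. Between the controls krt4 fell from 1460 to 421 CPM and krt8 from 745 to 642 CPM, whereas evpla rose from 0.521 to 3.33 CPM. With no size factor krt8 rose as well. The ratios were 0.442 and 0.922 for skeletal muscle, 0.522 and 0.826 for erythrocytes, 0.675 and 1.02 for neurons, and 1.37 and 0.637 for cartilage and mesenchyme. All these ratios used the TMM factor, and some turned with no size factor. As a share of all counts, the neural and retinal progenitor list was at 0.0305 and 0.0428% in the controls, and the neuron list at 0.0449 and 0.0485%. The macrophage, epidermis, skeletal muscle and erythrocyte lists stayed lower in control 2 than in control 1. The part of any of these cells in the replication and mitosis values was not tested.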

How the data were processed

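RNA of captured nuclei was sequenced in 4 libraries (2 control, 2 NRas+), amplified with SMART-seq v4. The authors aligned reads to danRer10 (STAR 2.4.2a) and summarised them over Ensembl genes (featureCounts); they deposited raw counts. Standard counting ignores strand, the labels name a reverse strand, and which was used was not settled, so overlapping genes and near-identical paralogs are uncertain. Each column was matched to a library by name. Amplified counts are not independent molecules, so a floor of 3 counts covers counting error only.

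Counts were analysed in R 4.3.3 with edgeR 4.0.16 (filterByExpr, TMM, quasi-likelihood test, Benjamini-Hochberg adjustment at 0.05). Differences between libraries are in log2 CPM (prior count 2). The tests were first tested on simulated data with changes larger than any fitted for a member, so changes of the sizes seen here were not tried. Symbols came from a name table that paired 26121 genes. The members, gene lists and markers were chosen with earlier results of these data known. Values in every library are given by rule for pcna, mki67, top2a and cdk1, for the 5 smallest unadjusted p and the 3 highest and 3 lowest fold changes of each list, and for the 3 smallest p of each further list; other members were added after their values were seen. Promoter motifs were planned but are not analysed here. Alternatives were DESeq2 1.42.0, RLE size factors, no filter, at least 10 counts in every library, the replicate number as a block, plain CPM, leaving out each library, and, added after seeing the data, edgeR's legacy fit.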

Additional observations from a re-analysis of the deposited data

How the results depend on the processing

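No alternative called a replication or mitosis gene. Over all genes, 26 were higher and 8 lower, against 233 and 146 with DESeq2, 88 and 64 with at least 10 counts in every library, 2 lower with no filter, and 10 and 0 in the legacy fit, which was added after seeing the data. Without single libraries these counts ran from 6 to 88 and from 0 to 263. With at least 10 counts in every library, 13 members were lower and 13 higher, fewer having been tested. In the fit with a replicate block, 7 and 0 genes were called, TOP2A turned to 0.35, the mitosis median was -0.04, the replication median 0.36, and 23 members were higher and 19 lower. Whether libraries of one number came from one experiment was not settled. Tested genes at 0 counts were alike by number, 1096 and 1080 in control 1 and NRas+ 1, against 46 and 53 in control 2 and NRas+ 2. Across genes, the differences between libraries of one group correlated by 0.147 between the groups, over 2 pairs. The block changed no call of a gene named here. Without single libraries, members higher ran from 15 to 33 and members lower from 9 to 28, and the mitosis median from -1.14 to 1.89. With plain CPM the replication sum was 384 in control 2 and 321 in NRas+ 1. Leaving out single libraries turned the sign of MAD2L1 (-3.38 to 0.18), KIF23 (-0.061 to 2.95), TOP2A (-1.13 to 3.33), SMC4 (-1.19 to 0.13), PRIM1 (-4.26 to 0.53), POLA1 (-2.58 to 0.32), CDT1 (-0.64 to 4.43), birc5b (-0.79 to 7.27), MCM6 (-1.10 to 0.38), NCAPG (-4.90 to 0.13), BIRC5 (-0.25 to 0.98), CDK1 (-0.71 to 0.31) and mki67 (-1.29 to 1.01). The cause was not tested.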

Other observations

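Regulators of the cell cycle were read from the same fit. Of 33 tested, 0 were called by edgeR's quasi-likelihood test, 3 had an unadjusted p under 0.05 (11.3% of all genes did), and 12 were above 0 and 21 below. CCND2 (ENSDARG00000051748), cyclin D2, which drives entry into S phase, was at 146 and 126 CPM in the controls and at 66.1 and 49.2 CPM in NRas+, with a log2 fold change of -1.24 (SE 0.38, adjusted p = 0.193 by edgeR). A further CCND2 row (ENSDARG00000070408) was at 0.409 and 1.04 CPM in the controls and at 0.686 and 0.762 CPM in NRas+, which overlapped. CCNG1, cyclin G1, a target of p53 in mammals, was at 275 and 282 CPM in the controls and at 603 and 681 CPM in NRas+, with an adjusted p of 0.278 by edgeR and 0.0467 by DESeq2. mybl2a, a gene of the Myb family, was at 0.968 and 1.74 CPM in the controls and at 12.0 and 3.23 CPM in NRas+ (log2 fold change 2.39, SE 0.81, adjusted p = 0.25 by edgeR), and its fold change was 1.20 without NRas+ 1 and 3.10 without NRas+ 2. The row named MYBL2 (ENSDARG00000032264) did not share this rise. It was at 1.08 and 5.31 CPM in the controls and at 0.713 and 4.00 CPM in NRas+, which overlapped, with a log2 fold change of -0.58 (SE 0.89).

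RRM2B (ENSDARG00000033367), the ribonucleotide reductase subunit left out of the members and a p53 target in mammals, was at 3.83 and 6.26 CPM in the controls and at 15.9 and 14.5 CPM in NRas+. Both NRas+ libraries were above both controls, and its log2 fold change (SE 0.51) stayed between 1.29 and 2.01 without single libraries. The adjusted p was 0.232 by edgeR's quasi-likelihood test and 0.0925 by DESeq2, so it was not called by either.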
